A study of Mus musculus with 2 samples.

Results

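The Ppm1 genes encode metal-dependent serine/threonine phosphatases of the PP2C family. The family was represented by 25 probe sets for 10 genes, out of 45037 probe sets and 18193 named genes on the array. A probe set was taken as a member when Ppm1a, Ppm1b, Ppm1d, Ppm1f, Ppm1g, Ppm1h, Ppm1j, Ppm1k, Ppm1l or Ppm1m was its only gene symbol in the platform annotation. No probe set listed a member together with another gene. Affymetrix arrays had been hybridised with total RNA of mouse haematopoietic stem cells, the bone marrow cells from which all blood lineages arise. One array carried RNA of Wip1 knock-out cells and the other RNA of wild type cells, both from mice aged 3 months. The knockout was the only genetic change named for either group. The sources used here do not give the allele, the deleted part of the gene, the strain, the cell sort or the number of mice behind an array. With 1 array per genotype no test across samples was possible, so no p-value is given.

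PP2C phosphatases act as single subunits and need manganese or magnesium ions, whereas most phosphatases of the PPP class work with regulatory subunits. They mostly switch off stress and growth signals by removing phosphate from kinases and their targets. Wip1, the product of Ppm1d, is transcribed under p53 and removes phosphates that DNA damage kinases place on p53 and on those kinases themselves, which closes the damage response. In blood, truncated and activated forms of the human enzyme are known from clonal haematopoiesis.

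The start of Ppm1d is printed first because Ppm1d is the targeted gene, and that of Ppm1a beside it because they were the only members whose windows shared a full cyclic AMP response element (TGACGTCA). Sequences are from RefSeq, build GRCm38.p6, plus strand, 5′ to 3′, and end before the annotated gene start. Capitals mark TGACGTCA in both and, in Ppm1d, a match to the p53 half-site consensus (GAGCTTGCTC). The Ppm1d stretch lies at chr11:85311103-85311222 and the Ppm1a stretch at chr12:72761009-72761128.
Ppm1d: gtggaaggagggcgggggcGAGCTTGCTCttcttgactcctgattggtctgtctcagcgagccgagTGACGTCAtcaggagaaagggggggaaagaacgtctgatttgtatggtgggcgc
Ppm1a: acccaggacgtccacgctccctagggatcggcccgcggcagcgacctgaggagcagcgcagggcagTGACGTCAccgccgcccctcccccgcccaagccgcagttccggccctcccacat
In Ppm1d the half-site match ended 122 bases and TGACGTCA 77 bases before the gene start. In Ppm1a TGACGTCA ended 128 bases before it.

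RefSeq windows of 300 bases, from 250 before to 50 after a start, were matched for 9 of the 10 members (12 windows) and for 27025 genes in all. Both strands were searched, and matches of different motifs could overlap. TGACGTCA was present in 2 of the 9 members, Ppm1d and Ppm1a, and in 2.03% of all genes (1.79% of 32851 windows). The p53 half-site was matched in 1 of 9, Ppm1d, against 9.55% of all genes. The GC box GGGCGG was found in 7 of 9 members (38.2% of all genes), CCAAT in 4 (41.1%) and TATAAA in 1, Ppm1f (15.7%). These are matches of letters and say nothing about binding in stem cells.

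Each probe set was placed against a floor, the median of all probe sets on the same array, which was 25.9 in the knockout and 25.2 in the wild type. Values are the deposited intensities, on a linear scale. They are compared between arrays for the same probe set only, since the brightness of different probe sets does not rank their genes. Of 10 members, 9 had a brightest probe set above the floor, against 62.9% of all genes. The exception was Ppm1j. Lying above the floor does not by itself show expression. Of the 25 probe sets, 20 lay above the floor on both arrays, 1 in the wild type only, and 4 on neither. A stricter line, the 75th percentile of each array (113 and 111), was exceeded on both arrays by 10 member probe sets, among them the brightest of Ppm1a, Ppm1b, Ppm1d, Ppm1f, Ppm1g, Ppm1h, Ppm1k and Ppm1m. Of all genes, 36.8% had a brightest probe set past that line on both arrays.

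**Figure D1:**
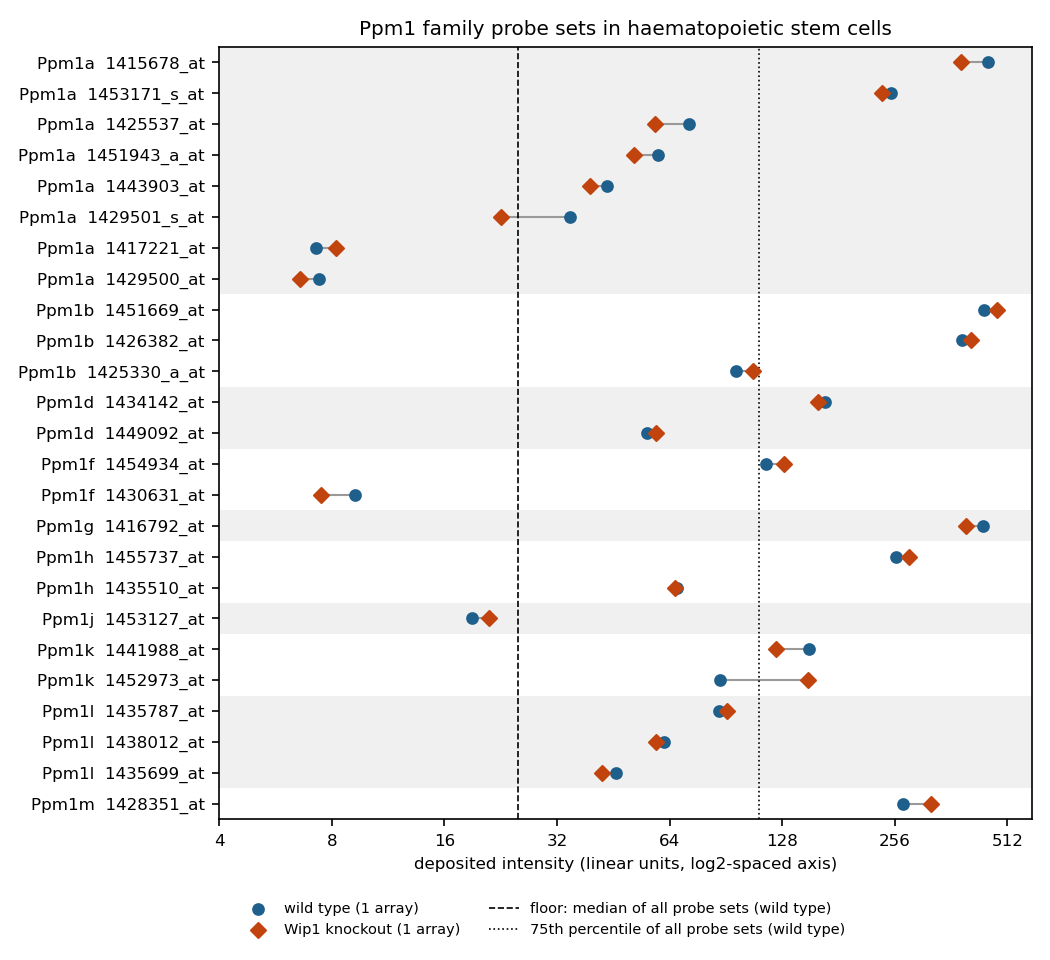
Deposited intensity (log2-spaced axis) of each of the 25 Ppm1 family probe sets on the wild type array (circles) and the Wip1 knockout array (diamonds), with the wild type array's floor (dashed) and 75th percentile (dotted). Symbols of a probe set nearly coincide for most members, and the widest horizontal gap among probe sets above the floor on both arrays is that of Ppm1k 1452973_at, at 87.3 in the wild type and 150.4 in the knockout.

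Ppm1d was measured at nearly equal levels on both arrays. The probe set 1434142_at, designed on an expressed sequence tag, read 159.7 in the knockout and 167 in the wild type. The probe set 1449092_at, designed on the gene's RefSeq transcript, read 59.0 and 55.6. The log2 differences, knockout minus wild type, were -0.05 and 0.10. Both were smaller than 0.21, the pooled within-gene SD of probe set differences across the 4761 genes that had several above the floor on both arrays. The spread between probe sets is the only error these data give, and it holds no variation between mice or arrays. For the median gene this SD was smaller, 0.125. Statements below use the pooled SD, and some member differences within it exceed 0.125. Of all single-gene probe sets above the floor, 82.5% and 66.3% differed by at least as much. The sources used here do not place either probe set relative to the deleted part, and neither value therefore checks the genotype label.

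The family as a whole differed little between the arrays. Over the 9 members above the floor, each by its brightest probe set, 5 were higher and 4 lower in the knockout, with a median log2 difference of 0.09 and a range of -0.28 to 0.25. The median size of the difference, whatever its sign, was 0.14, against 0.15 over all 11440 genes above the floor. No member reached 1.5-fold by its brightest probe set, where 3.85% of all genes did, and none reached 2-fold, where 0.664% did. By probe set, 10 of the 20 above the floor on both arrays were higher and 10 lower (9 and 11 without centring), against 50.1% higher among all. Of these, 15 lay within the SD between probe sets, compared with 63.2% of all such probe sets. One of 21 member probe sets above the floor on at least 1 array (4.76%) was past 1.5-fold, a share near the 4.52% of all probe sets.

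**Figure D2:**
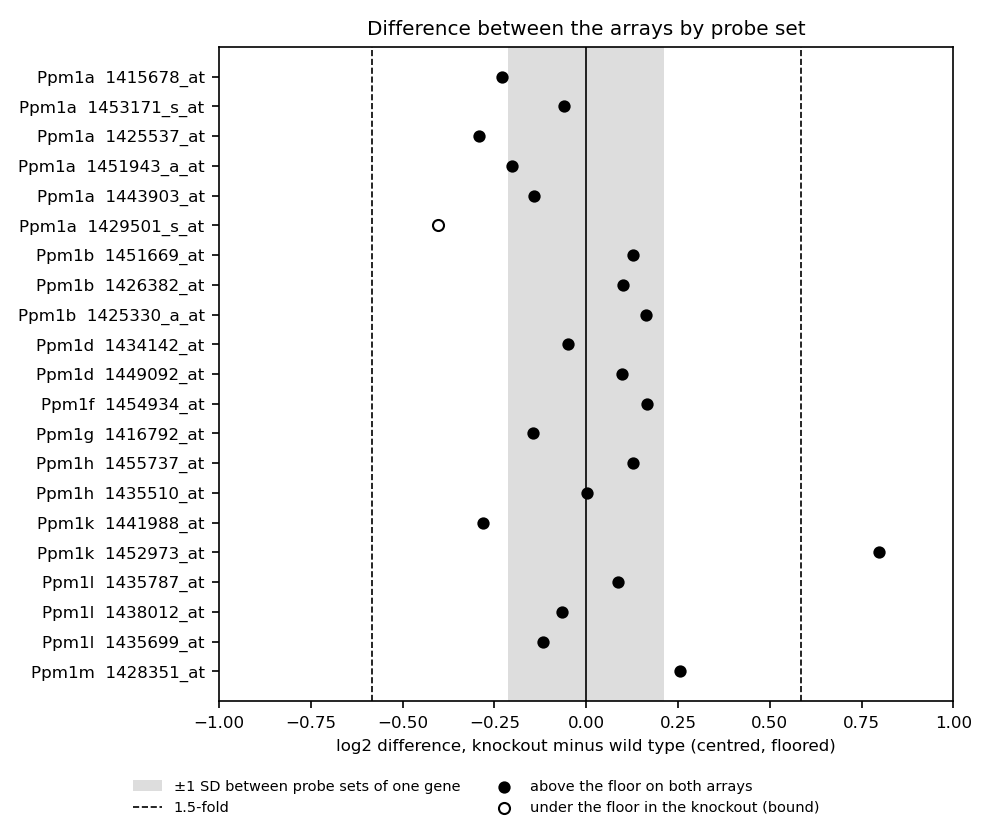
Log2 difference, knockout minus wild type, of the 21 family probe sets above the floor on at least 1 array; the grey band is ±1 SD between probe sets of one gene (0.21), dashed lines mark 1.5-fold, and the open circle is a bound. Of the filled points, 15 lie inside the band, and Ppm1k 1452973_at (0.80) is the only point past a dashed line.

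Ppm1k encodes the mitochondrial PP2C that activates the branched-chain ketoacid dehydrogenase, the committed step in breaking down leucine, isoleucine and valine. Its probe sets disagreed. The probe set 1452973_at read 150.4 in the knockout and 87.3 in the wild type, and 1441988_at read 123 and 150.6. The former was higher in the knockout by 0.80 on the log2 scale (1.74-fold), and the latter differed by -0.28. Among all single-gene probe sets above the floor, 1.67% differed by at least as much as 1452973_at. The gap between both Ppm1k probe sets, 1.08 on the log2 scale, was matched or exceeded in 0.767% of 2867 genes with exactly 2 probe sets above the floor on both arrays. With the floor at the 75th percentile, which the wild type value did not reach, the difference of 1452973_at was at least 0.46. That bound lies under 1.5-fold because the wild type value was raised to the floor. The sources used here do not state which Ppm1k transcripts each probe set reads, so neither difference is taken as that of the gene. In the counts and range over members, Ppm1k stands by 1441988_at, its brightest probe set by the mean of the 2 arrays.

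Transcripts of the dehydrogenase complex and its kinase are given next, each by its brightest probe set. Bckdha, the catalytic alpha subunit of the dehydrogenase that Ppm1k dephosphorylates, read 240.4 in the knockout and 177 in the wild type, a log2 difference of 0.45. Dbt, its acyltransferase core, read 112 and 88.6 (0.35). Bckdhb, the beta subunit, read 168 and 189 (-0.16), and Bckdk, the kinase that opposes Ppm1k, read 278 and 274 (0.03). Bckdha and Dbt were thus brighter in the knockout and Bckdhb was dimmer, with none past 1.5-fold.

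Ppm1a and Ppm1b encode closely related cytosolic and nuclear enzymes known to dephosphorylate Smad proteins, TAK1 and the IKK complex. Ppm1a had 8 probe sets, of which 5 lay above the floor on both arrays. The brightest, 1415678_at, read 385 in the knockout and 455 in the wild type, a log2 difference of -0.23. The next, 1453171_s_at, read 237 and 249.9 (-0.06). All 5 were lower in the knockout, by log2 differences of -0.29 to -0.06 with a median of -0.20. Among 171 genes with exactly 5 probe sets above the floor on both arrays, 32.2% had all of them on one side. These probe sets read the same RNA samples and are not replicates.

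The sixth Ppm1a probe set, 1429501_s_at, read 22.6 in the knockout, under the floor, and 34.6 in the wild type, at least 0.41 lower on the log2 scale. The remaining 2, 1417221_at (8.23 and 7.24) and 1429500_at (6.56 and 7.37), were under the floor on both arrays. Ppm1b was on the other side of 0 in each of its 3 probe sets. The probe set 1451669_at read 481 in the knockout and 444 in the wild type, a log2 difference of 0.13. The log2 differences of 1426382_at (410.3 and 386) and 1425330_a_at (107 and 96.2) were 0.10 and 0.16. Each lay within the SD between probe sets, and 50.7% of 1147 genes with exactly 3 probe sets had all of them on one side.

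Ppm1g, Ppm1m and Ppm1f each had 1 probe set past the 75th percentile on both arrays. Ppm1g, a nuclear phosphatase linked to splicing and to histone exchange, read 396 in the knockout and 441 in the wild type by its only probe set, a log2 difference of -0.14. Ppm1m read 319 and 270.0 by its only probe set. Its log2 difference of 0.25 was the highest among the brightest probe sets of the members, just outside the SD between probe sets, and 28.8% of probe sets above the floor differed by at least as much. Ppm1f, which dephosphorylates calmodulin-dependent kinases and p21-activated kinases, read 129 and 116 in 1454934_at (0.17). Its other probe set, 1430631_at, was under the floor on both arrays (7.49 and 9.22).

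The remaining members were Ppm1h, Ppm1l and Ppm1j. Ppm1h, which removes phosphate from Rab GTPases, read 279 in the knockout and 258 in the wild type in 1455737_at (0.13), and 66.3 and 66.8 in 1435510_at. The latter difference was 0.0013 on the log2 scale, and its sign depended on the scaling. Ppm1l, a membrane enzyme of the endoplasmic reticulum that acts on the stress kinases ASK1 and IRE1, had 3 probe sets between the floor and the 75th percentile. They read 91.3 and 86.8 (0.09), 58.7 and 62.0 (-0.06), and 42.2 and 46.2 (-0.12), knockout first, all within the SD between probe sets. Ppm1j read 21.1 and 19.0 by its only probe set, under the floor on both arrays, so no difference is given for it.

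**Figure D3:**
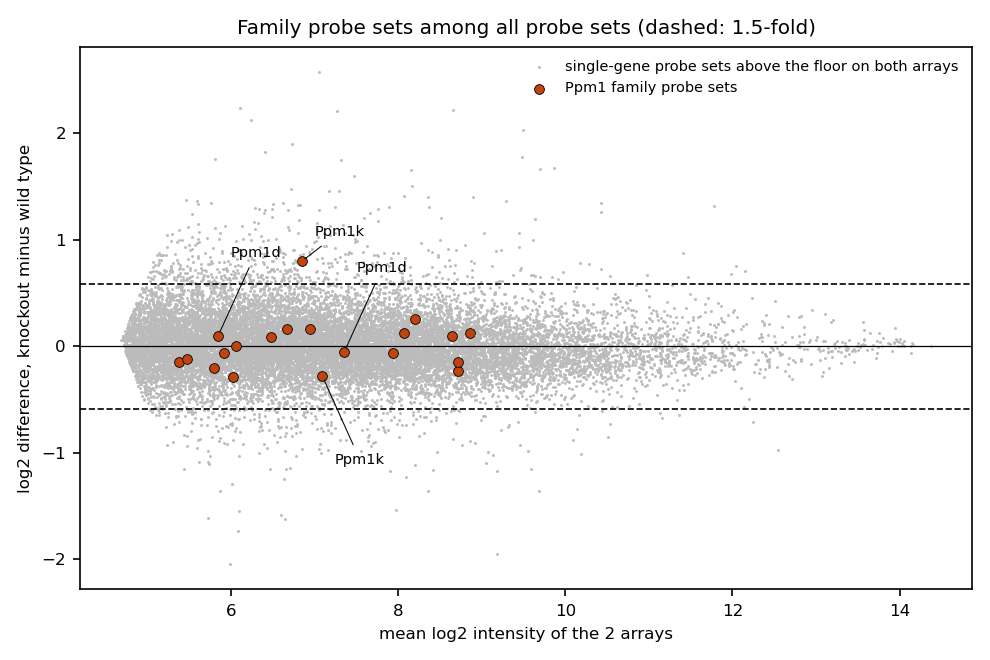
Log2 difference, knockout minus wild type, against the mean log2 intensity of the 2 arrays for 18758 single-gene probe sets above the floor on both arrays (grey) and the 20 of the Ppm1 family (orange); dashed lines mark 1.5-fold. Family probe sets lie within the grey cloud, with those of Ppm1d close to 0 and those of Ppm1k on opposite sides of it.

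Outside the 10 members, the wider PP2C clade was represented by 9 of 10 listed genes, 7 of them above the floor. Of these, 3 were higher and 4 lower, with a median log2 difference of -0.0041 against 0.00015 over all genes above the floor. Beside these counts and those of the lists below, 50.1% of all single-gene probe sets above the floor on both arrays were higher. Pdp1, which activates pyruvate dehydrogenase in mitochondria, was the only 1 of the 7 genes past 1.5-fold, against 3.85% of all genes above the floor. It read 57.5 in the knockout and 88.0 in the wild type, a log2 difference of -0.60, and its second probe set read 41.5 and 53.4 (-0.35). Its median over both probe sets was -0.48, under 1.5-fold, as was its value of -0.44 with the array median added as an offset. Pdp2, the second isoform of that phosphatase, differed by 0.24, and Phlpp2, which dephosphorylates AKT, by -0.26. Ppm1e and Ppm1n were under the floor on both arrays, with 12.7 and 8.21 for Ppm1e and 10.4 and 8.26 for Ppm1n.

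Of 12 listed Wip1 substrates, 11 were measured and all lay above the floor, with 3 higher, 8 lower and a median log2 difference of -0.04. Xpc, the damage sensor of nucleotide excision repair, was the only 1 of the 11 past 1.5-fold, against 3.85% of all genes above the floor. It read 477 in the knockout and 311 in the wild type (0.63) by its only probe set. Both values lay on the grid of 0.5 steps shared by 1565 probe sets, whose origin is not settled. With the array median added it stood at 0.58, just under 1.5-fold. Ung, the uracil DNA glycosylase, differed by -0.36. Chek1, a checkpoint kinase, differed by -0.30, with its 4 probe sets above the floor on both arrays between -0.36 and -0.25. How often genes with 4 such probe sets have all of them on one side was not computed.

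Listed substrates and partners of the other members numbered 16. Of 15 with a probe set, 14 were above the floor, with 10 higher, 4 lower, a median log2 difference of 0.09 and none past 1.5-fold. Bckdha and Dbt differed most, followed by Ern1, which encodes the stress sensor IRE1, at 293 in the knockout and 241 in the wild type (0.30). Its 3 probe sets above the floor on both arrays lay between 0.30 and 0.39, and its others were under the floor. Of genes with exactly 3 such probe sets, 50.7% had all of them on one side. Prkaa1, an AMPK catalytic subunit, was under the floor by its brightest probe set (17.4 and 23.0).

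The catalytic subunits of the PPP class had a median of -0.08 over 11 of 12 measured genes that lay above the floor, with 4 higher, 7 lower and none past 1.5-fold. Ppp3ca, a calcineurin catalytic subunit, read 627 in the knockout and 497 in the wild type (0.35). Its 3 probe sets lay between 0.27 and 0.35, where 50.7% of genes with exactly 3 above the floor on both arrays had all on one side. Ppp1cb, a catalytic subunit of protein phosphatase 1, differed by -0.22 and Ppp5c by -0.16. Ppef2, a phosphatase known from photoreceptors, was under the floor with the same value of 10.3 on both arrays.

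**Figure D4:**
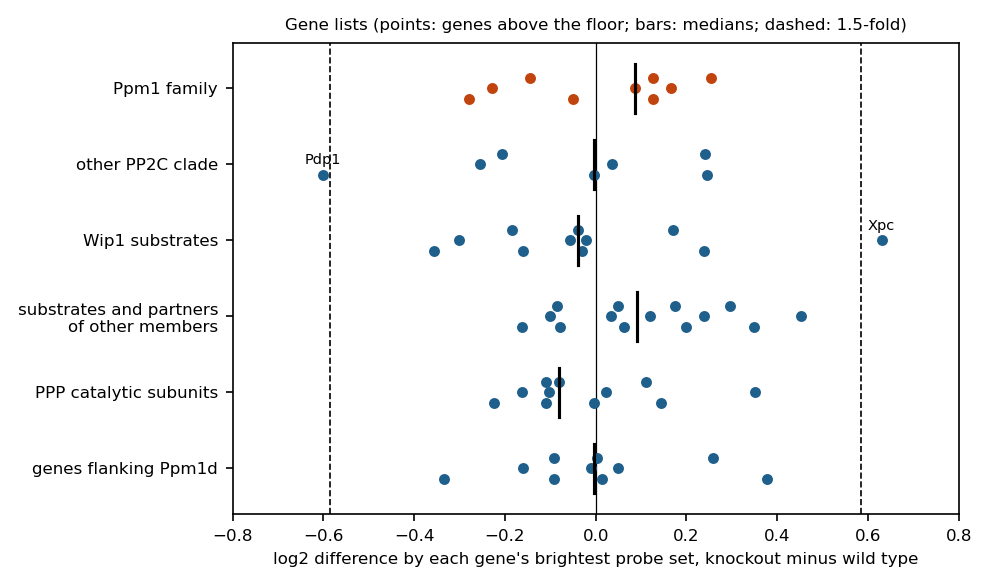
Log2 difference, knockout minus wild type, of each gene above the floor by its brightest probe set, for the Ppm1 family and 5 related lists; vertical bars are list medians and dashed lines mark 1.5-fold. The medians lie between -0.08 and 0.09, and only Pdp1 and Xpc are past a dashed line.

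The neighbours of Ppm1d were taken as the 10 named genes on each side in the reference gene order, of which 13 had a probe set and 10 lay above the floor. Their median log2 difference was -0.0038, with none past 1.5-fold by the brightest probe set. After centring 5 were higher and 5 lower; by the deposited values 3 were higher, 6 lower and 1 equal. The nearest with a probe set were Appbp2os (57.5 in the knockout and 57.9 in the wild type) and Bcas3, whose deposited values of 59.3 were identical on both arrays, as were 5.63% of all probe sets. The largest differences were those of the antisense transcript Brip1os (0.38), Znhit3 (-0.33) and the deubiquitinase gene Usp32 (0.26). A dimmer probe set of Usp32, chosen after its value was seen, read 116 in the knockout and 57.3 in the wild type (1.03). Car4, Tbx2 and Tbx4 were under the floor on both arrays.

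Beside these results stand differences between the samples that are not about the family, each by brightest probe sets. The first marker list pooled genes of stem cells and of progenitors, among them Flt3, Cd34 and Cd48. All 13 of its genes that were measured, of 15 listed, were above the floor, where 62.9% of all genes were. Of the 13 genes, 9 were higher and 4 lower, with a median log2 difference of 0.13. By the deposited values 8 were higher, 4 lower and 1 equal. Since the list is mixed, these counts do not compare the stem cell content of the samples. Flt3 (1.26) and Hlf (0.70) were past 1.5-fold higher and Slamf1 (-0.66) and Tek (-0.59) past 1.5-fold lower. Among all genes above the floor 3.85% were past 1.5-fold either way, a share that also stands beside the marker lists that follow. Other cell types' markers above the floor were 4 of 6 erythroid, 9 of 9 granulocyte, 7 of 8 monocyte and macrophage, 6 of 6 B cell, 2 of 5 T and NK cell, 4 of 5 megakaryocyte, and 3 of 6 stromal and endothelial markers. Over all measured markers of each list, under the floor or not, the summed intensities, knockout first, were 248 and 322, 13662 and 16044, 2691 and 1923, 1016 and 777, 737 and 912, 555 and 786, and 192 and 179 in that order. Of these 45 markers, 10 were under the floor on both arrays, namely Alas2, Hba-a1, Adgre1, Cd3d, Cd3g, Ncr1, Ppbp, Cdh5, Col1a1 and Cxcl12. The other 35 lay above it on at least 1 array, where 62.9% of all genes did. The summed intensities give bright probe sets the most weight and do not measure the share of a cell type. Large parts came from single genes, such as Mpo (3665 and 5498), Csf1r (770 and 294) and Nkg7 (668 and 835). Past 1.5-fold were Csf1r (1.40), Ly86 (0.99) and C1qc (at least 0.85) among monocyte markers, Gata1 (-0.84) among erythroid and Pf4 (-0.77) among megakaryocyte markers. Eif2s3y, a Y-linked gene, read 148.7 in the knockout and 31.8 in the wild type, a log2 difference of 2.24. The Y-linked genes Kdm5d (65.2 and 8.92) and Uty (29.3 and 6.92) were above the floor in the knockout only. Xist was bright on both arrays, at 3778 in the knockout and 6227 in the wild type (-0.71). These values were not used to assign a sex to either sample. The part of these differences in the values of Ppm1k, Pdp1 and Xpc was not tested, and less RNA per cell cannot be told apart from fewer cells of a type.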

How the data were processed

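The authors deposited linear intensity values, 1 for each probe set on each array. Per the submitters' processing notes the program was MAS5, with no version stated; the sources used here do not give background or scaling. On both arrays 1565 probe sets, Ppm1a 1415678_at and Ppm1h 1455737_at among them, held values in steps of 0.5 with the same remainder, and 2535 (5.63%) were identical, so how the values were made is not settled.

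Names came from the platform annotation (34945 probe sets with 1 gene, 932 with several, 9160 with none), updated through gene identifiers of GRCm38.p6 for 34741. Log2 values were centred on the median difference of single-gene probe sets above the floor (shift -0.01), lower values were raised to the floor, and the probe set with the highest mean stood for each gene. Differences are knockout minus wild type. Arrays' number limits the precision.

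Genes named were the members with every probe set; in each list, the 3 largest differences above the floor on both arrays and every listed gene under it; and the nearest neighbours of Ppm1d. Bckdhb, Bckdk and the marker genes were named outside that rule. Members and lists were chosen with earlier results of these data known. Some listed genes were not analysed here. Alternatives covered centring, floor, offset, probe set choice and class. The procedure was tested on simulated data, with planted changes larger than any member difference seen here. That test therefore does not vouch for small differences. Python 3.11.15, numpy 2.4.6, pandas 2.3.3 and statsmodels 0.14.6 were used.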

Additional observations from a re-analysis of the deposited data

How the results depend on the processing

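Under 9 alternatives, 713 of 722 recomputed values moved by less than 1 SD between probe sets or, for counts, by less than 1.5 times, and none of the values past 1.5-fold in the reported setting changed sign. Ppm1d stayed between -0.07 and -0.05 in 1434142_at and between 0.04 and 0.10 in 1449092_at. Single probe sets were recomputed under 7 of the alternatives, or 6 where both values lay under the 75th percentile floor, as for Ppm1d 1449092_at. In these, 19 of 20 member probe sets kept their sign, and Ppm1h 1435510_at ranged from -0.07 to 0.0053. Ppm1k 1452973_at ranged from 0.46 to 0.80. The lowest was a bound, with the floor at the 75th percentile, which the wild type value lay under. The count of wider PP2C genes past 1.5-fold was 0 with the array median as offset and as the median over probe sets. It was also 0 with the floor at the 75th percentile, but there Pdp1 lay under the floor on both arrays and was not assessed. The count of Wip1 substrates past 1.5-fold was 0 with the offset, which shrinks differences. Without _s_at, _x_at and _a_at probe sets, 1 gene flanking Ppm1d passed it, Ggnbp2 (0.66, against -0.09), because its brightest probe set was left out. No paired analysis was possible because each genotype had 1 array. Signal over background was not used here, and values near the floor are weakly supported.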
